A study of Ovis aries with 6 samples.

Results

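Signals of 10 immunoglobulin light chain probes were compared in the skin of 2 sheep breeds. The 10 were picked by name from 15008 probes on an Agilent sheep array, and the names were picked because the probes differed between these breeds. All 10 were higher in skin of Aohan fine wool sheep, relative to that of small tail Han sheep, by a median of 3.28 on the log2 scale, a 9.73-fold difference. Because the same contrast chose them, their values are a description and carry no test. By the study's own descriptions, 2 of the probes are for kappa chains, 2 are for lambda chains and 6 are for light chain variable region clones whose class was not stated.

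An antibody is built from heavy and light chains, and each light chain is of the kappa or the lambda class. The variable region of every chain is put together from gene segments as a B cell develops, so clones of cells carry different variable regions. Plasma cells are the B lineage cells that secrete antibody, and they devote much of their mRNA to immunoglobulin chains. In skin they lie in the dermis, and in many species the antibody of body surfaces is largely of secreted classes such as IgA.

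The study was made to look for genes linked to wool fibre diameter, which is fine in Aohan fine wool sheep and coarse in small tail Han sheep. Each breed gave 3 sheep of 12 months, 1 ram and 2 ewes by the methods, and full-thickness body side skin of about 1 cm2 was hybridised to 1 single-colour array per animal. The labels do not say which replicate was the ram. The 3 animals of a breed shared 1 sire, so breed and the family of that sire cannot be told apart, and neither can breed and scan session, because the Aohan fine wool arrays were scanned in one session and the small tail Han arrays in another. The sampled tissue was whole skin, in which fewer cells of a type and less RNA per cell cannot be told apart.

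Values are log2 signals relative to the 75th percentile of their array, so that 0 is the brightness below which 75 percent of the probes of the array lie. The 75th percentile of the processed signal was 1103 to 2048 in the Aohan fine wool arrays and 1747 to 2309 in the small tail Han arrays. On the Aohan fine wool arrays 10774 to 13418 probes were well above background, against 11055 to 12965 for small tail Han, and 0 spots were saturated. Keratin genes of the hair follicle sheath and cuticle (KRT25, KRT27, KRT35) and the dermal proteoglycan DCN were among the bright probes on all arrays, and 0 of these 4 genes passed the test for a breed difference. The plasma cell label could not be checked in the same way, since 0 of 11 plasma cell markers (such as JCHAIN and XBP1) were named on the array.

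All 10 light chain probes were well above background on 6 of 6 arrays, each from 1 spot per array. In Aohan fine wool skin their processed signals spanned 584 to 9136, and in small tail Han skin 104 to 959. Relative to the 75th percentile the levels were between -0.92 and 2.16 in Aohan fine wool sheep and between -4.15 and -1.22 in small tail Han sheep. The lowest Aohan fine wool value exceeded the highest small tail Han value at 10 of 10 probes, by 2.10 to 4.36 on the log2 scale. Among all 12481 probes tested, 17.8% showed the same separation of the breeds.

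The probe for clone 34 light chain variable region (A_70_P026356) had the widest difference. Its level was 1.03, 1.53 and 0.97 in Aohan fine wool replicates 1 to 3, against -3.59, -4.01 and -3.39 in small tail Han replicates 1 to 3. As processed signal these are 2246, 5934 and 2221 in Aohan fine wool skin and 192, 114 and 167 in small tail Han skin. The breeds stood far apart at this probe, with replicate 2 the brightest Aohan fine wool sheep and the dimmest small tail Han sheep. The difference was 4.84 ± 0.22 (SE, n = 3 per breed), or 28.6-fold, and it ranked 6 of 12481 from the highest.

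Lambda light chains are the class that dominates in sheep. The lambda-1d probe (A_70_P024446) had levels of 1.46, 2.16 and 1.57 in Aohan fine wool replicates and -2.59, -2.70 and -1.84 in small tail Han replicates. Its difference was 4.10 ± 0.27, or 17.2-fold, the second widest of the 10. The lambda-6c probe (A_70_P024441) read 1.13, 1.68 and 1.10 in Aohan fine wool skin, against -2.19, -1.89 and -1.48 in small tail Han skin. Both lambda probes were highest in replicate 2 of the Aohan fine wool sheep and in replicate 3 of the small tail Han sheep, and the lambda-6c difference was 3.16 ± 0.23, or 8.92-fold.

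Kappa chains form the other light chain class. The kappa-2.3 probe (A_70_P026126) gave 0.06, 0.68 and 0.12 in Aohan fine wool sheep, against -2.87, -4.15 and -3.71 in small tail Han sheep. The difference of 3.86 ± 0.32 (14.5-fold) went with the widest spread of the 10 within small tail Han sheep, where the SD was 0.650. The kappa chain probe of LOC100037688 (A_70_P016711) read 1.05, 1.40 and 0.86 in Aohan fine wool sheep, against -1.27, -1.70 and -1.50 in small tail Han sheep. At both kappa probes small tail Han replicate 1 was the highest of its breed and replicate 2 the lowest. The second kappa difference was 2.59 ± 0.19, or 6.02-fold, and the spread within small tail Han sheep was the narrowest of the 10 (SD 0.217).

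The remaining 5 probes were, like that of clone 34, for light chain clones with no stated class. Clone 116 (A_70_P026331) read 0.40, 1.09 and 0.59 in Aohan fine wool sheep, against -3.50, -3.23 and -2.49 in small tail Han sheep, a difference of 3.76 ± 0.28 (13.6-fold). Clone 70 (A_70_P026411) read 1.27, 1.93 and 1.32 in Aohan fine wool sheep, against -2.16, -1.94 and -1.22 in small tail Han sheep. Its difference was 3.28 ± 0.27, or 9.72-fold, and neither probe overlapped between breeds.

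Clone 64 (A_70_P026376) read -0.21, 0.03 and -0.50 in Aohan fine wool sheep, against -3.65, -3.86 and -3.02 in small tail Han sheep. Clone 96 (A_70_P026386) read 0.02, 0.63 and 0.03 in Aohan fine wool sheep, against -3.24, -3.28 and -2.40 in small tail Han sheep. The differences of these 2 clones were close to that of clone 70, at 3.28 ± 0.24 (9.74-fold) for clone 64 and 3.20 ± 0.27 (9.19-fold) for clone 96. Clone 17 (A_70_P026336) read -0.92, -0.44 and -0.83 in Aohan fine wool skin, against -3.35, -3.59 and -3.02 in small tail Han skin. Its difference of 2.59 ± 0.21 (6.02-fold) was, with that of LOC100037688, the smallest of the 10, and none of these 3 clones overlapped between breeds.

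**Figure D1:**
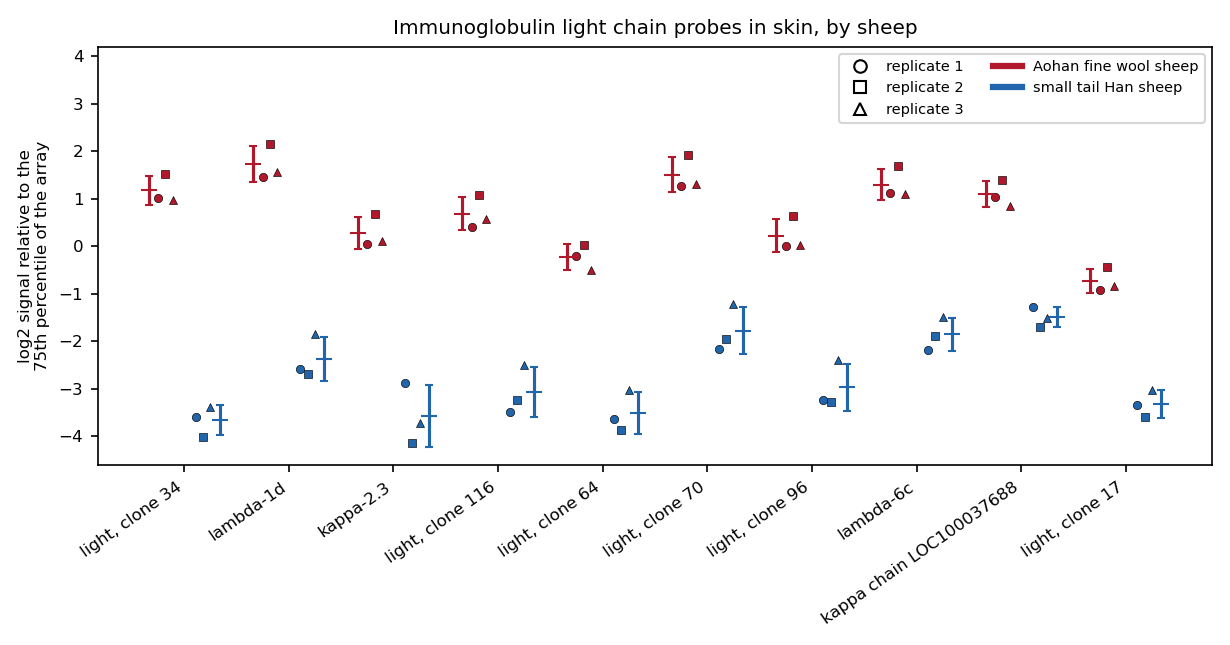
Log2 signal relative to the 75th percentile of the array (vertical axis) for the 10 light chain probes (horizontal axis, ordered by difference), with each sheep as a point, Aohan fine wool sheep in red on the left of each pair and small tail Han sheep in blue on the right, and bars showing the mean and SD (n = 3 per breed). The breeds do not overlap at any of the 10 probes, and the gap between them is widest for clone 34, at 4.36.

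The differences of the 10 probes ranked between 6 and 43 from the highest of 12481. Of all tested probes 0.345% were higher in Aohan fine wool skin by at least as much as the smallest of them. The median difference over all 12481 probes was 0.02. Within a breed the SDs of the 10 probes were 0.257 to 0.376 in Aohan fine wool sheep and 0.217 to 0.650 in small tail Han sheep. The gap between breeds was at least 2.10 and the SDs were at most 0.650, at probes that were chosen on this contrast. How the background was corrected bears on the size. With normexp correction of the spot and background signals the 10 differences were 2.25 to 4.13, with a median of 2.89. The headers of small tail Han replicates 2 and 3 record no multiplicative surface correction, unlike the other 4 arrays, and over those 4 arrays the differences were 2.37 to 4.77. The probes are for related variable regions, and whether transcripts of one chain reached several of them was not tested, so they are not counted as independent measurements.

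Within the breeds the sheep were ordered alike at many of the probes. Aohan fine wool replicate 2 was the highest of its breed at 10 of 10 probes, and it was highest at 33.3% of all tested probes with a value on every array and at 71.2% of the 594 probes that were at least 1 higher on the log2 scale in Aohan fine wool sheep. This array also had the highest 75th percentile of its breed, at 2048 against 1103 and 1131, and its part in the order was not tested. In small tail Han sheep the 2 kappa probes had another order than the other 8, of which 2 are lambda and 6 have no stated class. Replicate 3 was highest at 8 of 8 probes that were not kappa, as it was at 44.0% of all tested probes and at 27.8% of the same 594. Replicate 1 was highest at 2 of 2 kappa probes, as it was at 32.7% of all tested probes and at 59.8% of the 594.

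The mean of the 2 kappa probes minus the mean of the other 8 gives the same split as 1 value for each sheep. It was 0.03, -0.04 and -0.04 in Aohan fine wool replicates 1 to 3, and 0.96, 0.14 and -0.25 in small tail Han replicates 1 to 3. The Aohan fine wool sheep lay close together, and the small tail Han sheep spread widely, with replicate 1 above the others. With normexp correction the 3 small tail Han values were 0.58, 0.18 and -0.15, in the same order and nearer each other, and those of the Aohan fine wool sheep were -0.20, -0.21 and -0.23. Correlation between the probes was not calculated over the 6 arrays, which form 2 separate clusters by breed, nor within a breed, where 3 sheep are too few.

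**Figure D2:**
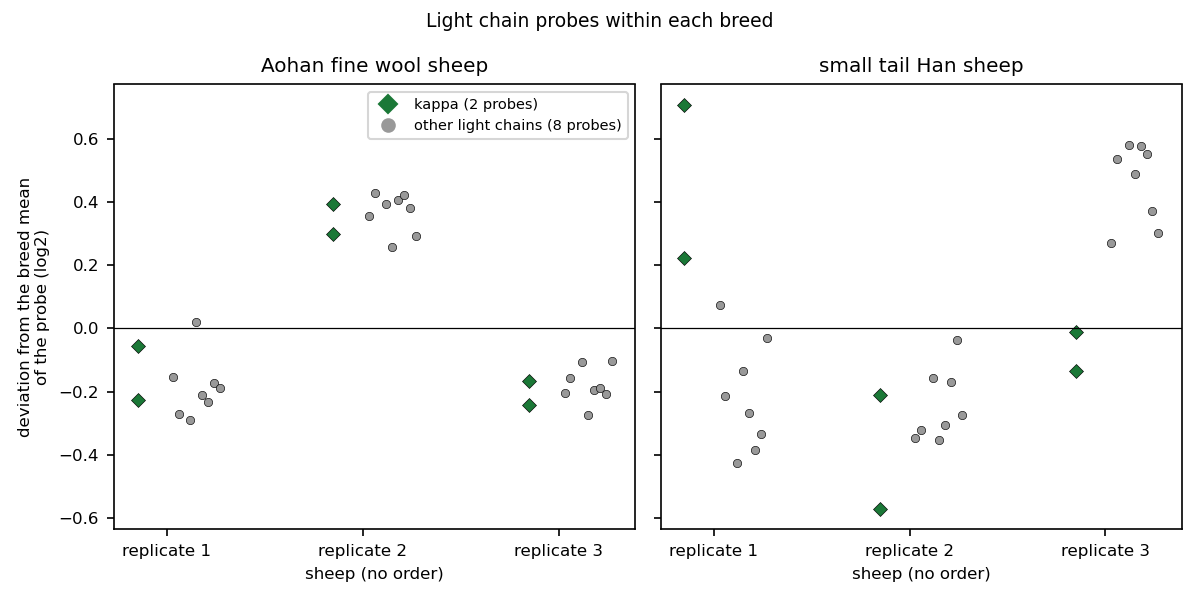
Deviation of each light chain probe from its own breed mean on the log2 scale (vertical axis) for each of the 3 sheep of a breed (horizontal axis), Aohan fine wool sheep on the left and small tail Han sheep on the right, with diamonds for the 2 kappa probes and circles for the other 8. In small tail Han sheep the kappa probes are highest in replicate 1 and the other 8 in replicate 3, while in Aohan fine wool sheep all 10 are highest in replicate 2.

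The study's table of differing probes describes 9 further immunoglobulin probes, 4 for light chains and 5 for heavy chains, which were therefore also chosen on this contrast. All 9 were higher in Aohan fine wool skin, by 1.46 to 2.71 on the log2 scale for the light chains and by 1.13 to 1.76 for the heavy chains. The heavy chain differences were all below the smallest of the 10 light chain differences, but not below all those of the other light chains. Lambda-2c (1.46 ± 0.17), well above background on 6 of 6 arrays, lay below heavy chain clones 1 (1.76), 139 (1.68) and 106105 (1.60). With normexp correction lambda-2c differed by 1.24, above the 0.64 to 1.06 of the heavy chains. At the light chain probes the largest was for lambda-6d (2.71 ± 0.32), above the 2 smallest of the 10, but the probe was well above background in only 1 of 3 small tail Han sheep, and with normexp correction its difference was 1.14, below all 10 and below clone 139 (2.11). Light chain clone 139 (2.37 ± 0.18) was well above background on 6 of 6 arrays, with signals of 1038, 2413 and 1018 in Aohan fine wool sheep and 375, 369 and 390 in small tail Han sheep. Lambda-6b differed by 2.26 ± 0.25, with 2 of 3 small tail Han arrays well above background, and by 1.12 with normexp correction.

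Heavy chains set the class of an antibody, the mu chain being that of IgM. The 3 mu probes differed by 1.13 ± 0.23 (clone VRA19), 1.24 ± 0.22 (clone VRB6) and 1.60 ± 0.24 (clone 106105). Their signals were low in both breeds, at 80.5 to 240 in Aohan fine wool sheep and 45.1 to 114 in small tail Han sheep. The other heavy chain clones, of unstated class, differed by 1.68 ± 0.24 (clone 139) and 1.76 ± 0.25 (clone 1). In Aohan fine wool sheep replicate 2 was highest at 4 of 4 of these light chain and 5 of 5 heavy chain probes, and in small tail Han sheep replicate 3 was highest at 4 of 4 light chain and 4 of 5 heavy chain probes. With normexp correction the 5 heavy chain differences were 0.64 to 1.06, lower at each of the 5 probes.

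Variable region clones were entered in sequence databases in runs, and 30 further probes carried accessions between those of the described chains but had no description of their own. They are named here by probe only. Descriptions came only from the study's table of differing probes, so the lack of one also depended on this contrast. The counts below therefore describe a set that the contrast had already split. Of the 30, 14 could be tested, and 4 passed as higher in Aohan fine wool skin and 0 as lower (limma, Benjamini-Hochberg adjusted p under 0.05), whereas 7.57% of all tested probes passed as higher and 7.6% as lower. All 4 lay between light chain accessions, where 6 of 8 probes were tested. Between heavy chain accessions 0 of 8 tested probes passed and 14 of 22 were too dim to test, and the probe nearest to passing there (A_70_P026516) differed by 2.15 ± 0.73 (limma adjusted p = 0.0843). That probe did not pass in 5 of 6 fits that left out 1 sheep, and passed in the other.

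The widest difference among these undescribed probes was at A_70_P026396, with levels of 1.91, 3.60 and 3.06 in Aohan fine wool sheep, against -1.37, -1.52 and -0.82 in small tail Han sheep. Like the described light chains other than kappa it was highest in Aohan fine wool replicate 2 and in small tail Han replicate 3. It differed by 4.09 ± 0.39 (17.1-fold, limma adjusted p = 0.000276) and stayed past the threshold in every alternative that was run. A_70_P026391 differed by 2.14 ± 0.33 (limma adjusted p = 0.00402) but was well above background in 1 of 3 small tail Han sheep, and with normexp correction its difference was 0.74 (limma adjusted p = 0.221). The smaller differences of A_70_P026416 (1.38 ± 0.34, limma adjusted p = 0.0269) and A_70_P026351 (1.23 ± 0.34, limma adjusted p = 0.0428) did not hold with single sheep left out. A_70_P026416 was lost in 4 of 6 such fits (without Aohan fine wool replicate 2 or 3 or small tail Han replicate 1 or 2, limma adjusted p up to 0.101) and A_70_P026351 in 6 of 6 (up to 0.142).

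**Figure D3:**
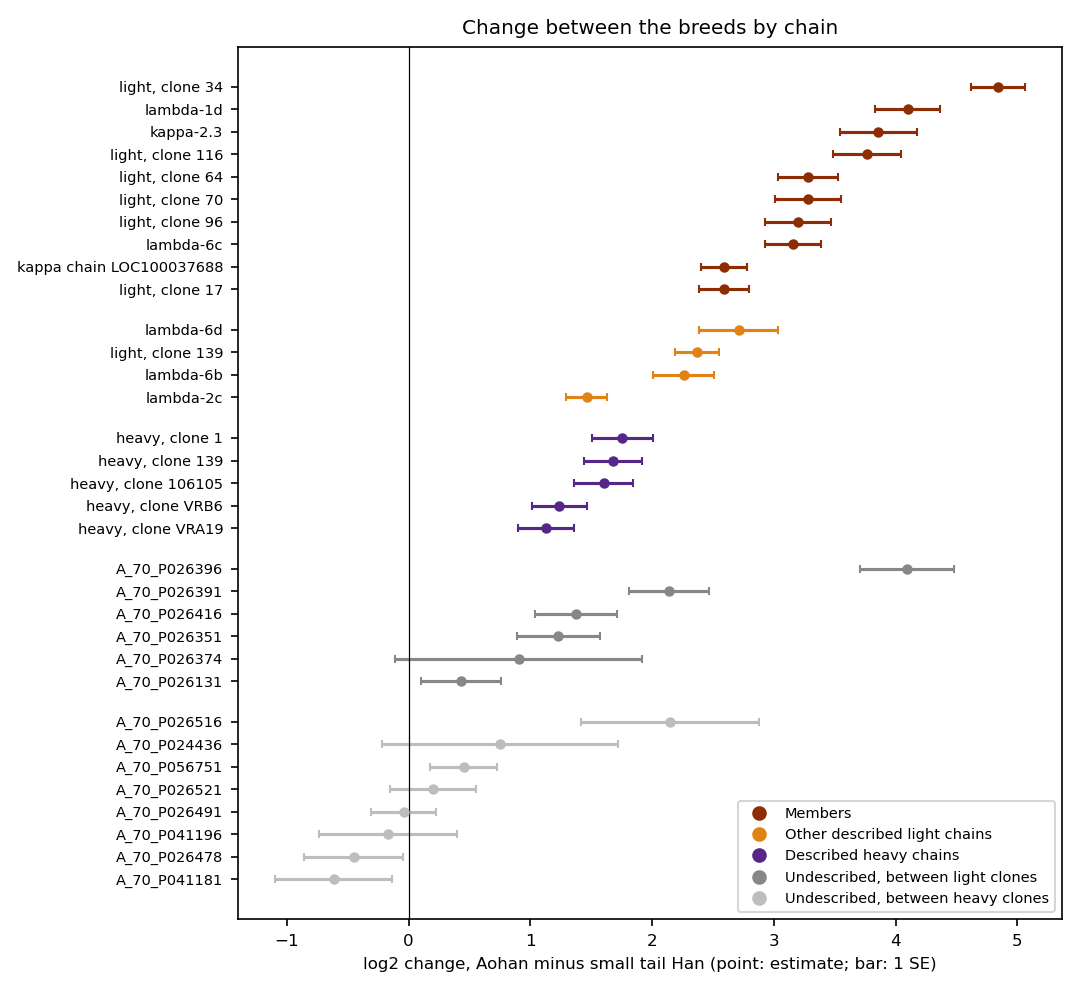
Difference between the breeds on the log2 scale, Aohan fine wool minus small tail Han (horizontal axis), for the 10 light chain probes named Members, the 9 other described immunoglobulin probes and the 14 tested probes with no description (rows), with bars of 1 SE. The 10 light chain probes lie between 2.59 and 4.84, the 4 other described light chain probes between 1.46 and 2.71, and the 5 described heavy chain probes between 1.13 and 1.76.

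Few named genes on the array belong to the cells that make these chains. Of 14 B cell genes only CR2, the complement receptor of B cells and follicular dendritic cells, was named on the array. Its probes differed by -0.15 ± 0.15 (limma adjusted p = 0.555) and -0.05 ± 0.25 (limma adjusted p = 0.915), and all their levels lay between -2.94 and -1.67 in Aohan fine wool and small tail Han sheep alike. The CR2 probes thus did not pass, and the second had a positive sign under some alternatives.

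Cytokines that act on B cells were covered better, with 10 of 16 listed genes on the array and 8 tested. The list was chosen with earlier results of these data known, so its counts are a description. Of the 8 genes, 5 passed as higher in Aohan fine wool skin and 0 as lower. By probe 6 of 10 passed as higher, while 7.57% of all tested probes passed as higher and 7.6% as lower. The median difference over the 10 tested probes was 0.79. With the methods' t-test these calls were lost (Benjamini-Hochberg adjusted p 0.0803 to 0.195). IL6, which drives B cells toward antibody secretion, differed by 2.41 ± 0.44 (limma adjusted p = 0.00876). Its levels were -4.39, -3.55 and -4.15 in Aohan fine wool sheep, against -6.34, -7.31 and -5.68 in small tail Han sheep, where 2 of 3 arrays read it well above background. The IL6 signal was dim, and with normexp correction the difference was 0.76 (limma adjusted p = 0.231).

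IL5, known in mice as a growth factor of some B cells and in many species of eosinophils, differed by 0.99 ± 0.21 (limma adjusted p = 0.0162) at 1 probe, while the other IL5 probe was too dim to test. TGFB1, which directs B cells to IgA, differed by 0.82 ± 0.18 (limma adjusted p = 0.0192). Both probes of IL10, a cytokine that restrains inflammation and aids plasma cell formation, differed by 0.79, with limma adjusted p = 0.0222 and 0.0327. The breeds did not overlap at the tested probes of these 3 genes, a separation that 17.8% of all tested probes showed. IL7, a growth factor of early lymphocytes, differed by 2.27 ± 0.63 (limma adjusted p = 0.0439), with only 2 Aohan fine wool and 1 small tail Han arrays well above background. With normexp correction the IL7 difference was 0.36 (limma adjusted p = 0.799). Single sheep decided some of these calls. IL7 was lost in 5 of 6 fits that left out 1 sheep (all but small tail Han replicate 3, limma adjusted p up to 0.124). TGFB1 was lost without small tail Han replicate 2 or 3 (up to 0.0842), while IL5 and IL6 passed in 6 of 6. Both IL10 probes were lost without Aohan fine wool replicate 3 or small tail Han replicate 2 (up to 0.124). The second IL10 probe (A_70_P030057) was lost in 4 of 6 such fits. With normexp correction it differed by 0.62 (limma adjusted p = 0.0841), while the first differed by 0.70 and passed (limma adjusted p = 0.0159).

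The T cell cytokines IL2 (0.02 ± 0.23, limma adjusted p = 0.962) and IFNG (-0.42 ± 0.22, limma adjusted p = 0.252) did not pass at 1 probe each. The other probe of each gene was too dim to test. The probes of CD40LG, the T cell signal to B cells, gave -0.19 ± 0.34 and 0.14 ± 0.26 (limma adjusted p = 0.762 and 0.766). IL4 and IL13 were too dim to test. The B cell help list was therefore higher in Aohan fine wool sheep at some of its members, and its summed level was 1.52 to 1.69 times the 75th percentile in Aohan fine wool sheep and 0.90 to 1.07 in small tail Han sheep. The TGFB1, IL10 and IL5 probes, which passed, made up most of this sum, so it is not a separate result for the list.

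Receptors that bind or carry antibody gave no call at 3 tested genes of 9 listed. FCGRT, which carries and recycles IgG, differed by -0.22 ± 0.25 (limma adjusted p = 0.610) and was bright in both breeds. FCGR1A, a receptor of IgG on myeloid cells, differed by 0.55 ± 0.20 (limma adjusted p = 0.106), and the probes of FCER1A, of the IgE receptor on mast cells, differed by 0.14 ± 0.23 and 0.70 ± 0.36 (limma adjusted p = 0.740 and 0.231). Without Aohan fine wool replicate 1 the second FCER1A probe passed (limma adjusted p = 0.0485).

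**Figure D4:**
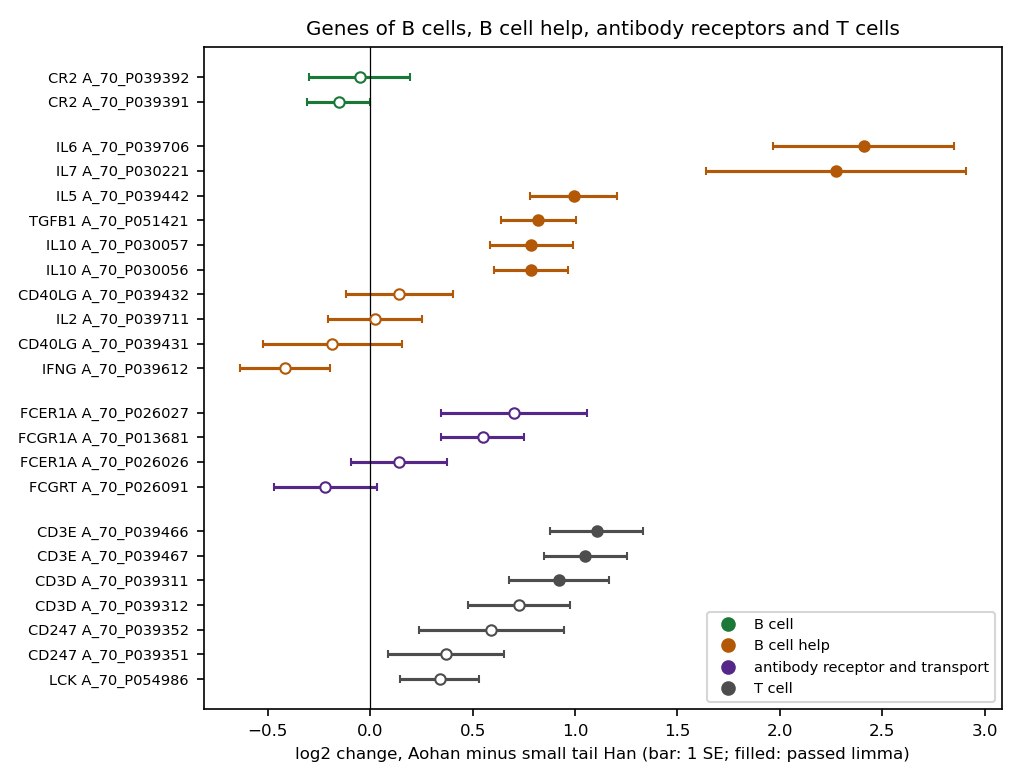
Difference between the breeds on the log2 scale, Aohan fine wool minus small tail Han (horizontal axis), for each tested probe of the B cell, B cell help, antibody receptor and transport, and T cell lists (rows), with bars of 1 SE and filled points where the limma adjusted p was under 0.05. Filled points are IL6, IL7, IL5, TGFB1, IL10, CD3E and 1 of the 2 CD3D probes, while CR2 and the antibody receptors are open.

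Some genes of other immune cells were higher in the same skin, on lists also chosen with earlier results of these data known. Of the T cell list 4 of 6 genes on the array were tested, and CD3D and CD3E, chains of the T cell receptor complex, passed as higher in Aohan fine wool skin, against 7.57% of all tested probes. CD3E differed by 1.11 ± 0.23 and 1.05 ± 0.20 at its 2 probes (limma adjusted p = 0.0135 and 0.0104), and CD3D by 0.92 ± 0.24 and 0.73 ± 0.25 (limma adjusted p = 0.0362 and 0.0880). The CD3D call was lost in 5 of 6 fits that left out 1 sheep (all but small tail Han replicate 3, limma adjusted p up to 0.118), and 1 of the 2 CD3E probes was lost without small tail Han replicate 2 (0.0633). CD4 and CD28 were too dim to test, while CD247 and LCK did not pass. The summed level of the list was 9.68 to 11.8 times the 75th percentile in Aohan fine wool sheep and 4.15 to 7.53 times in small tail Han sheep. It was highest in replicate 1 of the Aohan fine wool sheep, where the light chains were highest in replicate 2, and in replicate 3 of the small tail Han sheep. The CD3D and CD3E probes made up most of this sum. The LCK probe and both CD247 probes had another order. They were highest in Aohan fine wool replicate 2, as the light chains were, and in small tail Han replicate 1.

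Of 5 tested myeloid genes, ITGB2 (both probes) and PLAUR passed as higher in Aohan fine wool skin, as did 7.57% of all tested probes, and CD14, ITGAM and FCGR1A did not pass. With normexp correction PLAUR differed by 0.55 (limma adjusted p = 0.394). PLAUR and the ITGB2 probe A_70_P030171 were each lost without Aohan fine wool replicate 2 or 3 or small tail Han replicate 2 or 3 (limma adjusted p up to 0.126 and 0.121), and the other ITGB2 probe without small tail Han replicate 2 (0.0556). The summed level of the list was 2.23 to 2.60 in Aohan fine wool sheep and 1.57 to 1.77 in small tail Han sheep. Of the blood genes HBB and ALB neither passed in the main fit. HBB differed by -0.83 ± 0.37 (limma adjusted p = 0.171). With normexp correction it differed by -0.91 and passed as lower in Aohan fine wool skin (limma adjusted p = 0.00573). The ALB probes differed by 0.74 ± 0.32 and -0.14 ± 0.27 (limma adjusted p = 0.166 and 0.765). Among 4 tested milk genes only CSN2 passed, at 1 of its 2 probes. That probe (A_70_P039416) was higher in Aohan fine wool skin by 4.86 ± 0.65 (29.1-fold, limma adjusted p = 0.00177), and ranked 5 of 12481 from the highest. It was well above background in 1 of 3 small tail Han sheep, and with normexp correction it differed by 2.09. The other CSN2 probe differed by 0.06 ± 0.36 (limma adjusted p = 0.934). The part of the cells of these lists in the light chain differences was not tested.

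Chaperones of the secretory pathway fold antibody chains in the endoplasmic reticulum. A list of secretory pathway genes, not all of them chaperones (ATF4 is not), had 5 on the array. CANX, which retains unfolded glycoproteins, differed by 0.74 ± 0.15 and DNAJC10, a disulfide reductase, by 1.24 ± 0.27. ERLEC1 differed by 0.44 ± 0.13, ERP29 by -0.40 ± 0.14 and ATF4 by 0.27 ± 0.16. DNAJC10 was well above background on 2 arrays of each breed, and with normexp correction it differed by 0.31. Of the 5 symbols, 4 (all but ATF4) come from the study's own table of differing probes, so those 4 carry no test here, and ATF4 did not pass (limma adjusted p = 0.304).

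The profile of the 10 light chain probes was set against the profiles of 12410 tested probes with values on all 6 arrays, as the root mean square difference of log2 values after each probe was centred on its own mean. The 10 lay between 0.151 and 0.691 from their mean profile. The nearest probes with a gene symbol outside the immunoglobulin list were CXCL8, a neutrophil attractant (0.397), the lysozyme 2a gene LOC443321 (0.471), LTF, an iron-binding defence protein (0.507), PNRC1 (0.513) and SLC38A2, an amino acid transporter (0.551). This measure includes the difference between the breeds, on which the 10 were chosen, and shared arrays and so was given no test.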

How the data were processed

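Skin RNA of 6 sheep was hybridised to 1-colour Agilent arrays. The authors deposited scanner output, per the file headers from Agilent Feature Extraction 10.5.1.1, in which each spot has a background-subtracted processed intensity. The methods name another version of this software and of the scanner. The authors also deposited a matrix of log2 values, quantile-normalized, used as an alternative. Control spots and outlier-marked spots were left out, spots of a probe were averaged, and log2 intensity minus the array's 75th percentile was tested with limma 3.58.1 in R 4.3.3 (eBayes with an intensity trend, two-sided, Benjamini-Hochberg adjusted p under 0.05). The fit took 12481 of 15008 probes, those read well above background by 3 or more arrays and with 2 or more values in each breed. The fit was tested on simulated data. Columns of fold changes and p-values in the study's table were not used, and descriptions came from it. The members and the marker lists were chosen with earlier results of these data known. Named genes were the 10 probes, the other described immunoglobulin probes, every tested gene of the B cell, B cell help and antibody receptor lists and the 5 symbol-bearing probes of most like profile. Other genes were named from the T cell, myeloid, blood, milk, skin and chaperone lists. Of 758 probes with a RefSeq accession, 734 were named through RefSeq genes. The number of arrays limits the precision. Alternatives are given at the close.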

Additional observations from a re-analysis of the deposited data

How the results depend on the processing

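All 10 light chain probes kept a higher level in Aohan fine wool skin under every alternative, with differences of 2.25 to 4.98 on the log2 scale, and the median of 3.28 was 2.89 with normexp correction. Of all tested probes 1893 passed, against 788 to 2248 when each sheep was left out (the lowest without small tail Han replicate 2), 341 over the 4 arrays whose headers record a multiplicative surface correction (an alternative chosen after seeing the data, in which small tail Han has 1 array, assumed to vary like the others), and 712 with the methods' t-test after Benjamini-Hochberg adjustment. With the replicate number as a block 1197 passed. The labels state no pairing of samples by these numbers. The deviations of same-numbered sheep correlated at -0.22, -0.37 and 0.28, which with 3 sheep per breed cannot decide whether the numbers pair samples.

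Of the undescribed probes 4 passed as higher in Aohan fine wool skin, against 6 with no filter on dim probes. The count was 1 with normexp, 2 with a filter on all 6 arrays, 1 with the t-test and 2 to 3 with a sheep left out. Over the 33 tested probes that are described as immunoglobulin (19, chosen on this contrast) or have no description (14), the median difference of 1.76 was 1.03 with normexp, 1.23 with no filter, 2.59 with a filter on all 6 arrays and 2.37 over the surface-corrected arrays. The cause was not tested.

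Signs turned at probes that did not pass. CR2 (A_70_P039392) was 0.11 with normexp, 0.0016 over the surface-corrected arrays and -0.25 to 0.23 with a sheep left out. FCGRT was 0.0386 over the surface-corrected arrays, and IL2 was -0.0275 with quantile normalization and -0.038 with the deposited matrix. With a sheep left out IL2 ranged over -0.11 to 0.17, FCER1A (A_70_P026026) over -0.0644 to 0.41 and CD40LG (A_70_P039432) over -0.0017 to 0.37, each lowest without small tail Han replicate 1. With the t-test none of IL5, IL6, IL7, IL10, TGFB1, CD3D and CD3E passed (adjusted p 0.0803 to 0.259), and without small tail Han replicate 2 the calls of IL7, IL10, TGFB1, CD3D, 1 CD3E probe, ITGB2 and PLAUR were lost.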

Other observations

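Of the probes that the sources used here do not describe, a few outside the groups above followed the light chains closely. They were chosen after their values were seen, and no gene is named for them. A_70_P026366, the second nearest of all 12410 probes to the mean light chain profile at 0.177, had levels of 0.89, 1.46 and 0.85 in Aohan fine wool sheep, against -2.89, -3.04 and -2.22 in small tail Han sheep. A_70_P026326 (0.197) had -0.17, 0.67 and -0.08 in Aohan fine wool sheep, against -3.71, -3.30 and -2.93 in small tail Han sheep. In both, Aohan fine wool replicate 2 and small tail Han replicate 3 were the highest of their breed, as at the light chain probes that were not kappa. A_70_P026136 (0.365) had signals of 4448, 23049 and 8460 in Aohan fine wool sheep and 1000.1, 727 and 1169 in small tail Han sheep.

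A_70_P026121, which has no description, had the other order. It read -0.93, -0.38 and -1.02 in Aohan fine wool sheep, against -2.76, -4.22 and -3.84 in small tail Han sheep, so that small tail Han replicate 1 was highest and replicate 2 lowest, as at both kappa probes.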
